A study of Mus musculus with 12 samples.

Results

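The comparison described here is that of untreated cells, titled splenic dendritic cells, with and without Slc29a3 by their labels, read across all genes of a count table. It set the 3 untreated knockout libraries (labelled SLC29A3-/- C57BL6, called KO) against the 3 untreated wild-type libraries (labelled WT C57BL6), 6 of the 12 libraries in the series. The other 6 came from cells of the same genotypes that had been pulsed for 30 min with attenuated Salmonella typhimurium (STmDfla, multiplicity of infection 10) and left for a chase of 3 h. Untreated cells received none. All cells, of both genotypes, had been prepared in the same way: spleen cells positive for CD90.2, CD45R or CD49b were removed, CD11c positive cells were then kept on magnetic beads, and the labels describe the result as a mixture of cDC1 and cDC2. The labels do not give the deleted part of Slc29a3, the age or sex of the mice, or whether separate mice gave the libraries of each group. P-values therefore measure only how these libraries vary, and part of that may be technical.

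Slc29a3 encodes ENT3, an equilibrative nucleoside transporter of late endosomes and lysosomes. Lysosomes break down nucleic acids from engulfed cells and microbes, and ENT3 carries the freed nucleosides out into the cytosol. Loss of the protein is known in mice and in people for the build-up of nucleosides in lysosomes and for disorders of macrophages and histiocytes. Conventional dendritic cells (DCs) of the spleen take up antigen, mature, and present peptides to T cells. They fall into cDC1, which present antigen from dead cells to CD8 T cells, and cDC2, which mainly prime CD4 T cells. By its title, the series asks what SLC29A3 does for signalling against bacteria in phagosomes and for autophagy, which it links to TRPML1, a cation channel of lysosomes and the product of Mcoln1.

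The untreated libraries held 15814761 to 18561946 gene counts each. Counts of Y-linked genes were high and Xist was at 0 or 1 in the libraries numbered 1, and libraries 2 and 3 showed the reverse, in both genotypes. On the first principal component of the untreated libraries (62.7% of the variance), the KO libraries had scores of 32.1, 58.0 and 67.8. The WT libraries had -48.5, -50.4 and -59.1, so library 1 of each genotype was the nearest to the other genotype. The second component (16%) set the libraries numbered 1 of both genotypes (32.6 in WT and 43.0 in KO) apart from the others (-23.6 to -12.2). For calls and counts that changed most when KO library 1 or another library was left out, the value without it is given beside them. Levels below are CPM, counts per library scaled to a common size with TMM factors, listed for libraries 1, 2 and 3 in that order. Differences are on the log2 scale, KO minus WT, with the standard error (SE) of the fit.

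The cells carried the genes of their label in both genotypes. Itgax, which encodes CD11c, had 809, 735 and 765 CPM in WT and 663, 762 and 989 in KO libraries. Flt3, the receptor for the main DC growth factor, had 266, 222 and 207 CPM in WT and 266, 175 and 191 in KO (-0.14 log2, SE 0.23, edgeR adjusted p = 0.767). The groups overlapped for both genes. Xcr1, the chemokine receptor of cDC1, also overlapped, with 54.2, 95.1 and 59.8 CPM in WT and 67.4, 40.5 and 37.1 in KO. RNA of further cell types was present as well, and differed between the genotypes as described with the gene groups it touches. In whole-sample RNA, fewer cells of a type and less RNA per cell cannot be told apart.

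Slc29a3 (mm10 chromosome 10, 60712072 to 60752794) was counted in every library. Its levels were 110.2, 99.2 and 104 CPM in WT and 93.97, 73.96 and 63.5 in KO libraries. All KO libraries lay below all WT libraries, with KO library 1 nearest to them, and the difference did not pass the threshold (-0.44 log2, SE 0.17, edgeR adjusted p = 0.111). Without KO library 1 it passed, at -0.66 log2 (edgeR adjusted p = 0.023). A count over the whole gene can hold reads from parts that a deletion leaves, so the genotype labels cannot be checked from these levels.

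A pair of transporters related to ENT3 were higher in KO cells. Slc29a1 encodes ENT1, which moves nucleosides across the plasma membrane, and had 11.5, 7.69 and 9.64 CPM in WT and 27.3, 36.98 and 48.9 in KO libraries (1.97 log2, SE 0.25, edgeR adjusted p = 0.000638). The lowest KO library stood above the highest WT library by more than the range of the WT libraries. Slc28a2, a sodium-coupled concentrative transporter of purine nucleosides, rose from 2.34, 0.513 and 1.25 to 3.96, 5.12 and 6.88 CPM (1.96 log2, SE 0.45, edgeR adjusted p = 0.0138), a call that did not hold without WT library 3 or without KO library 3 (edgeR adjusted p = 0.07 and 0.0667). Of the 7 nucleoside transporters listed, Slc29a3 among them, 4 were tested, 2 were higher and none was lower. The list summed to 117 to 137 CPM in WT and 123 to 137 in KO libraries, which overlapped. The part of RNA from other cell types, described below, in these differences was not tested. Across all genes 9.5% were higher and 3.46% lower.

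Across the transcriptome, more genes were higher than lower in KO cells, and the larger differences were mostly gains. Of 14293 genes tested, 1358 were higher and 494 lower in KO libraries at an edgeR adjusted p under 0.05, which is 13% in either direction. The shares were 9.5% higher and 3.46% lower, and the counts of the lists below are to be read against them. At least 2-fold differences were found in 954 of the higher and 130 of the lower genes, and at least 8-fold differences in 350 and 11. Of the higher genes, 224 (16.5%) were under the filter's count minimum in every untreated WT library. Of the lower genes, 11 (2.23%) were under it in every untreated KO library. For such genes, passing the filter and direction are not separate observations. The median over called genes was 1.51 log2 for the higher and -0.70 for the lower genes, against 0.0059 over all genes tested. Scaling by library totals alone moved that median to 0.0935 log2 and the share of higher among called genes from 73.3% to 84.4%. The groups did not overlap in 37.4% of tested genes. KO library 1 was the lowest KO library for 959 of the higher genes (70.6%) and KO library 3 the highest for 964 (71%), and KO library 1 was the highest KO library for 324 of the lower genes (65.6%). Without KO library 1, 1276 genes were higher and 757 lower. Fewer passed without WT library 2 (827 and 328), WT library 3 (663 and 210), KO library 2 (813 and 262) or KO library 3 (764 and 201).

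**Figure D1:**
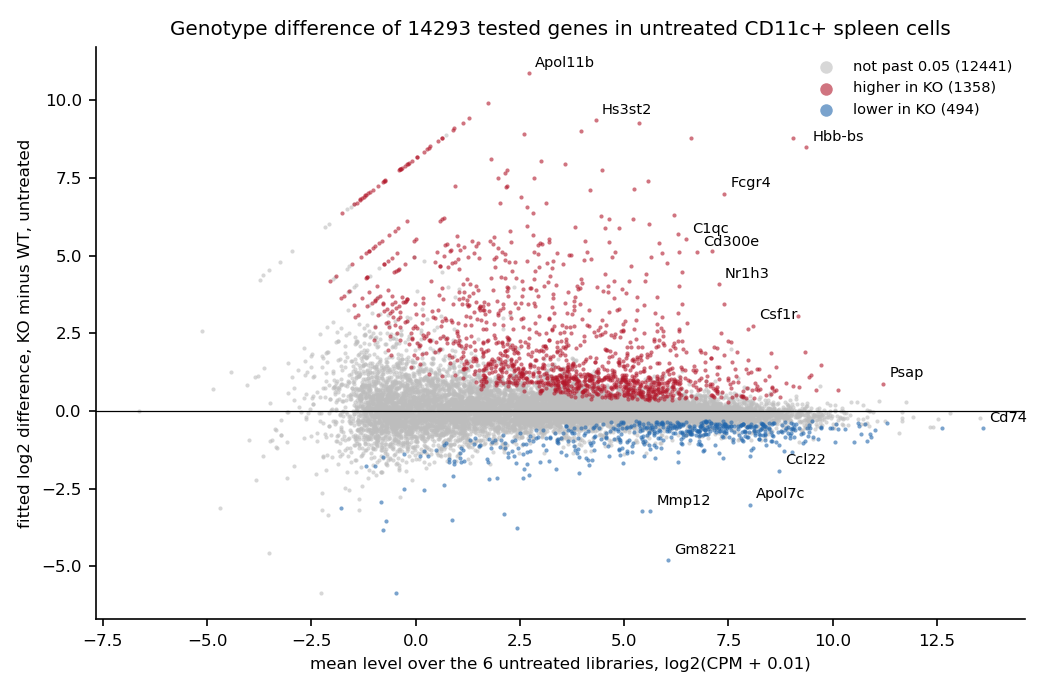
Fitted log2 difference of KO from WT (vertical axis) against the mean level over the 6 untreated libraries, as log2(CPM + 0.01) (horizontal axis), 1 dot per tested gene. The 1358 higher genes (red) reach further from 0 than the 494 lower genes (blue); fitted differences of genes with no count in WT, which form the diagonal line at the upper left, depend on the prior count of the fit and are not sizes to be read off.

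Genes of tissue macrophages were prominent among the gains. Of 24 red pulp macrophage genes listed, 22 were tested, 15 were higher in KO and none was lower, with a median of 2.38 log2. Red pulp macrophages are the spleen cells that clear old red blood cells and recycle their iron. Vcam1, an adhesion molecule of these cells, had 27.7, 21.1 and 17.9 CPM in WT and 92.8, 94.1 and 115 in KO libraries (2.18 log2, SE 0.20, edgeR adjusted p = 0.000134). Adgre1, which encodes the macrophage surface protein F4/80, had 33.00, 14.3 and 21.1 CPM in WT and 108, 114 and 186 in KO (2.58 log2, SE 0.34, edgeR adjusted p = 0.000851). For both genes the lowest KO library stood well above the highest WT library, and KO library 3 was the highest. Slc40a1, the iron exporter ferroportin, rose from 11.2, 16.8 and 13.5 to 45.3, 78.1 and 168 CPM (2.81 log2, SE 0.50, edgeR adjusted p = 0.00373). Larger differences were found for Maf, a transcription factor of macrophages (4.89 log2), and for Cd5l, a secreted protein of tissue macrophages (5.41 log2). Members of the same list that did not pass were Hmox1 (0.79 log2), the heme oxygenase, Spic (0.39), and Mrc1 (-1.40), the mannose receptor, among others. Spic is the transcription factor that red pulp macrophages need. The 24 genes together had 834 to 1296 CPM in WT and 1578, 2574 and 4398 in KO libraries. Vsig4 had no count in any untreated library.

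Monocyte genes showed the same direction. Of 20 listed and tested, 13 were higher and 1 was lower, with a median of 1.53 log2. Csf1r, the receptor for the macrophage growth factor CSF1, had 97.8, 49.9 and 63.6 CPM in WT and 304, 409 and 703 in KO libraries (2.74 log2, SE 0.42, edgeR adjusted p = 0.00174). Cx3cr1, the fractalkine receptor of patrolling monocytes and of some DCs, had 6.33, 8.77 and 8.91 CPM in WT and 51.1, 123 and 131 in KO (3.67 log2, SE 0.40, edgeR adjusted p = 0.000336). The groups stood far apart for both, with KO library 1 the lowest of the KO libraries. Clec4a3, a C-type lectin with inhibitory signalling, rose from 4.63, 4.15 and 5.39 to 34.7, 87.4 and 134 CPM (4.18 log2, SE 0.52, edgeR adjusted p = 0.00063). Ccr2, the receptor that brings classical monocytes out of the marrow, did not pass at 0.85 log2, and Nr4a1, a factor of patrolling monocytes, was lower (-0.76), a call lost without WT library 2, WT library 3, KO library 2 or KO library 3. The list summed to 1080 to 1350 CPM in WT and 1561 to 2557 in KO libraries.

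Receptors and soluble proteins that phagocytes use to take up opsonised targets were higher as well. Fcgr4, an activating receptor for IgG, had 1.12, 5.28 and 1.36 CPM in WT and 164, 289.6 and 553 in KO libraries (7.00 log2, SE 0.85, edgeR adjusted p = 0.000638). Fcer1g, the signalling chain that activating Fc receptors share, had 51.3, 43.3 and 48.7 CPM in WT and 158, 262 and 397 in KO (2.51 log2, SE 0.35, edgeR adjusted p = 0.00121). In WT cells Fcgr4 was close to absent while Fcer1g was not, and both stood apart from WT in every KO library. Of 13 Fc receptor genes listed 11 were tested, 7 were higher and 1 was lower, with a median of 1.58 log2. Reads of Fcgr4 and Fcgr3 (3.25 log2) can be shared between these related genes. In the complement list 17 of 22 genes were tested and 9 were higher, with a median of 1.90 log2. C1qc, a chain of C1q, which opens the classical pathway, rose from 5.96, 4.31 and 1.02 to 92.2, 147 and 289 CPM (5.54 log2, SE 0.70, edgeR adjusted p = 0.000766). C4b, the next component of that pathway, had 1 count over the WT libraries and 9.59, 14.3 and 12.1 CPM in KO, a ratio of 673 (95% counting interval 120.4 to 26614). Cfp, or properdin, the stabiliser of the alternative pathway, rose from 39.7, 39.8 and 34.03 to 102, 131 and 192 CPM (1.90 log2, SE 0.28, edgeR adjusted p = 0.00134). Of 26 scavenger and dead-cell receptors listed 21 were tested, and 10 were higher and 1 lower. The lower calls of the Fc receptor and scavenger lists did not hold without WT library 3, KO library 2 or KO library 3. The formyl peptide receptor genes Fpr1 (4.79 log2) and Fpr2 (5.03 log2) and Mertk (4.62 log2), a receptor for dying cells, were among the higher genes. C1qa, C1qb and C1qc belong also to the macrophage list. The part of the macrophage and monocyte RNA described above in these differences was not tested.

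**Figure D2:**
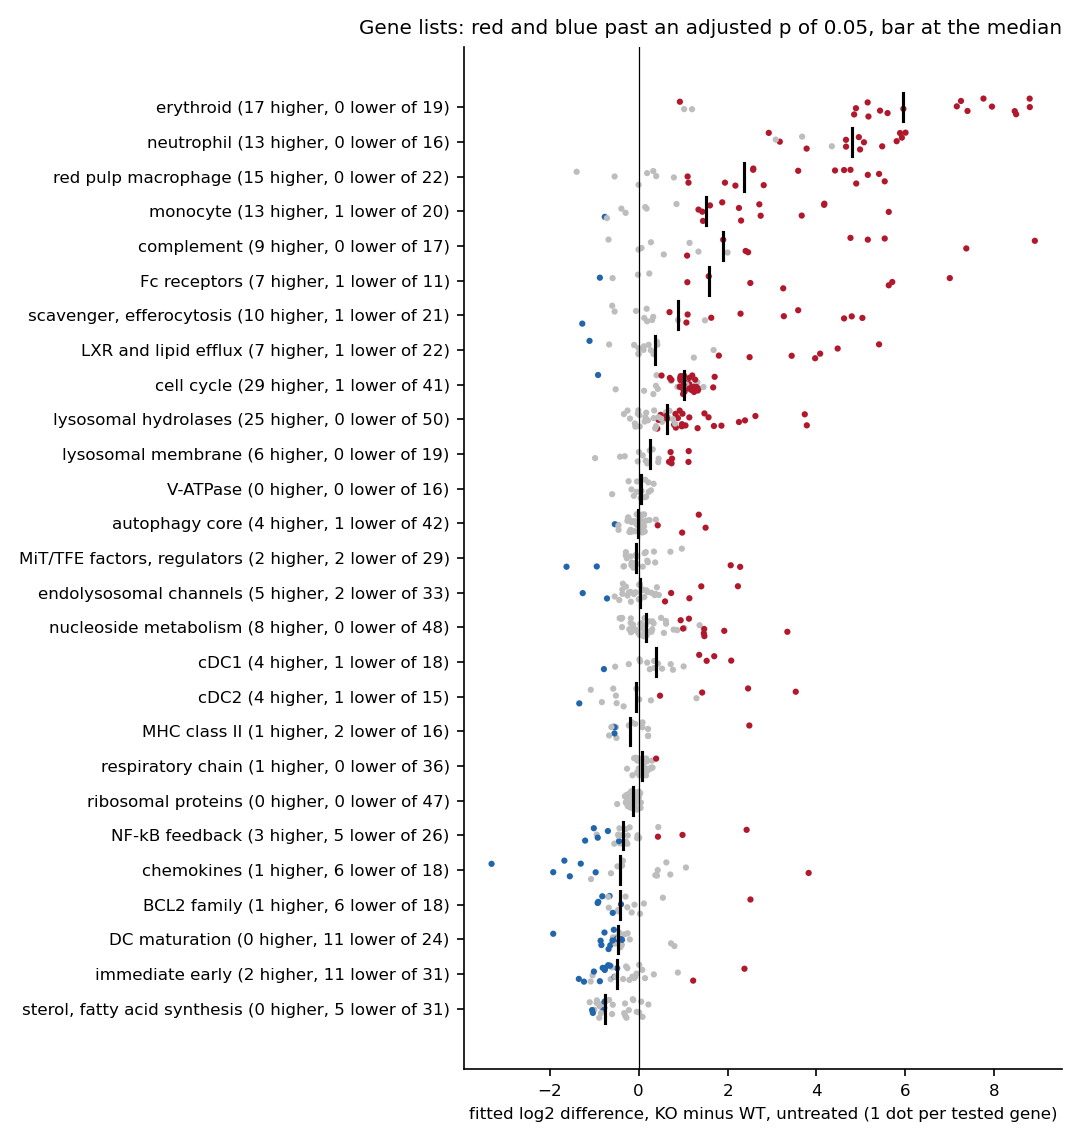
Fitted log2 difference of KO from WT for the tested genes of 27 lists, 1 dot per gene, with genes past an adjusted p of 0.05 in red (higher) or blue (lower) and a bar at the list's median. Erythroid, neutrophil and macrophage lists reach the largest values, lysosomal hydrolases lie mostly to the right of 0 while V-ATPase genes sit at 0, and maturation, immediate early and sterol genes lie mostly to the left.

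Genes of lipid handling in macrophages followed. Nr1h3 encodes LXRα, a nuclear receptor that senses oxysterols, and had 18.3, 16.4 and 16.8 CPM in WT and 129.8, 278 and 466 in KO libraries (4.08 log2, SE 0.51, edgeR adjusted p = 0.000624). Pltp, a phospholipid transfer protein and a known LXR target, had 8.30, 6.82 and 6.52 CPM in WT and 65.5, 149 and 268 in KO (4.48 log2, SE 0.56, edgeR adjusted p = 0.000624). Abcg1, a cholesterol exporter and LXR target, had 18.9, 41.1 and 24.96 CPM in WT and 132, 300.1 and 493 in KO (3.44 log2, SE 0.57, edgeR adjusted p = 0.00273). The WT libraries were close together for Nr1h3 and Pltp, and the KO libraries spread widely with library 1 lowest. Of 24 LXR and lipid efflux genes listed 22 were tested, 7 were higher and 1 lower, with a median of 0.37 log2. The lower gene was Mylip (-1.11 log2), an LXR target, and Abca1 (1.24 log2), the other main cholesterol exporter, did not pass. Apoe, an LXR target and carrier of cholesterol, had 90.96, 78.9 and 54.6 CPM in WT and 65.2, 68.2 and 90.8 in KO libraries, which overlapped. Cd5l is a member of this list too.

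Red blood cell genes had the highest median difference of the lists. Of 20 erythroid genes listed, 19 were tested, 17 were higher in KO and none was lower. The median was 5.96 log2, or 5.50 with the genes that had no WT count set at a bound, computed with 3 counts for the whole WT group. For the value of 5.50, genes with some but at most 3 WT counts were set at the ratio of their scaled counts. Of the 19 genes, 11 were under the filter's count minimum in every untreated WT library. These were tested only because other libraries had enough counts, so that their passing the filter and their direction are not separate observations. Hbb-bs, a β-globin gene, had 1.44, 4.67 and 4.82 CPM in WT and 838, 1107 and 1992 in KO libraries (8.49 log2, SE 0.71, edgeR adjusted p = 0.000107). Hba-a1, an α-globin gene, had 0.745, 3.38 and 3.01 CPM in WT and 782, 874 and 1534 in KO (8.80 log2, SE 0.62, edgeR adjusted p = 3.34e-05). Reads of each can be shared with the near-identical copies Hbb-bt and Hba-a2, which were also higher (8.80 and 7.76 log2). Alas2, the first enzyme of heme synthesis in erythroid cells, rose from 0.373, 0.564 and 0.737 to 72.4, 70.9 and 141 CPM (7.40 log2, SE 0.52, edgeR adjusted p = 3.34e-05). Gata1 and Tspo2 had no count in WT. The list summed to 68.5 to 73.3 CPM in WT and 2228, 2483 and 4187 in KO libraries, with no overlap for any of the 19 genes.

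Neutrophil genes were higher too, but unevenly between KO libraries. Of 19 listed 16 were tested, 13 were higher and none was lower, with a median of 4.81 log2. In untreated WT, 6 of the 16 were under the filter's count minimum in every library and were tested only through other libraries. S100a8, a subunit of the alarmin calprotectin, had 2.55, 2.51 and 3.06 CPM in WT and 32.8, 160.3 and 13.6 in KO libraries (4.67 log2, SE 1.05, edgeR adjusted p = 0.0156). KO library 2 held most of it and KO library 3 the least. The list summed to 15.1 to 20.3 CPM in WT and to 238, 996 and 130 in KO libraries. The number higher was 5, 3, 2 and 7 without WT library 1, WT library 2, WT library 3 or KO library 2, and 2 with limma-voom or with no filter on low counts. S100a8 itself did not pass without any one of the WT libraries. Csf3r, the receptor for the neutrophil growth factor G-CSF, passed in each of these and had 6.23, 4.46 and 4.20 CPM in WT and 30.9, 50.4 and 53.4 in KO (3.18 log2, SE 0.36, edgeR adjusted p = 0.000405).

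**Figure D3:**
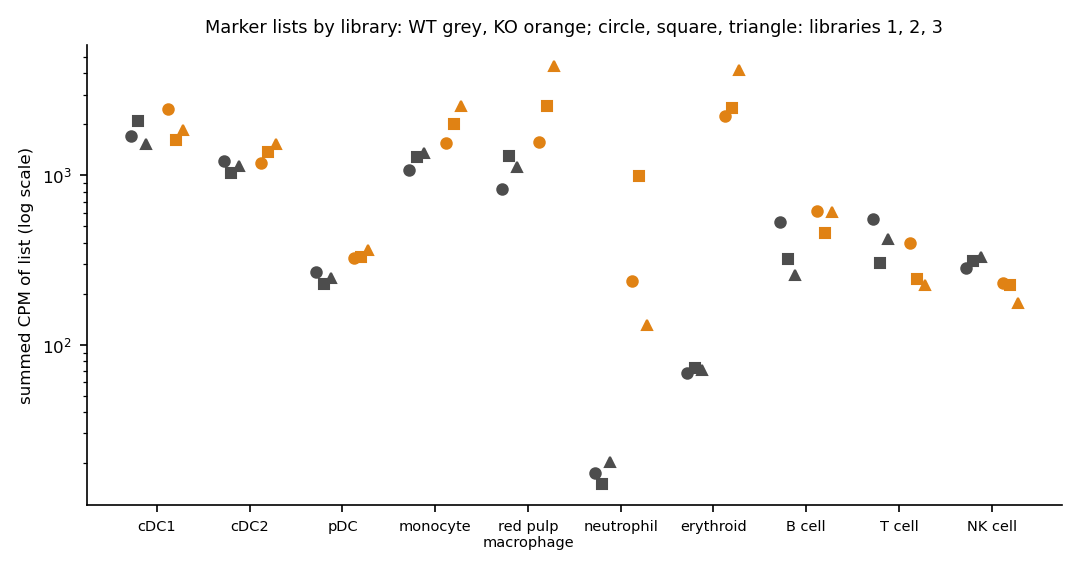
Summed CPM (log scale) of the marker lists of 10 cell types in each untreated library, WT in grey and KO in orange, with circles, squares and triangles for libraries 1, 2 and 3. Erythroid sums were 68.5 to 73.3 CPM in WT and at least 2228 CPM in KO, macrophage and neutrophil sums were also higher in every KO library, and the cDC1 and cDC2 sums overlapped.

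Lymphocyte genes, which the depletion should part from DCs, gave few calls. Of 15 tested B cell genes 1 was higher, of 18 T cell genes none was called and of 8 tested NK cell genes 1 was lower. The T cell list summed to 306 to 552 CPM in WT and 225 to 400 in KO libraries, the B cell list to 259 to 532 and 454 to 618 CPM. The B cell call did not hold without any library other than WT library 1, and 1 T cell gene was called lower without WT library 2, without KO library 1 or with the DESeq2 Wald test. Of 10 tested plasma cell genes 2 were higher and 1 lower, and the number higher was 0 without WT library 2 or KO library 3. Among 5 tested stroma and endothelium genes Pecam1 (4.01 log2) and Kdr (1.95 log2) were higher, and the list sum was at most 26.2 CPM in WT and 125 to 231 in KO libraries. Kdr did not pass without WT library 3.

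Lysosomal enzymes, the compartment in which ENT3 works, were higher in KO cells as a broad group. Of 51 hydrolases and their activators listed, 50 were tested, 25 were higher and none was lower, with a median of 0.63 log2 and 43 of the 50 above 0. Ctsd, the aspartic protease cathepsin D, had 52.6, 71.4 and 62.3 CPM in WT and 155, 307 and 429 in KO libraries (2.26 log2, SE 0.36, edgeR adjusted p = 0.00214). Grn, the precursor of the lysosomal granulins, had 75.3, 79.01 and 54.3 CPM in WT and 279, 399.6 and 611 in KO (2.63 log2, SE 0.35, edgeR adjusted p = 0.00097). Ctsa, which encodes cathepsin A, the protective protein of other lysosomal enzymes, had 113, 87.7 and 90.5 CPM in WT and 188, 284 and 394 in KO (1.57 log2, SE 0.27, edgeR adjusted p = 0.00351). Each of these stood apart from WT in all KO libraries, with library 1 lowest and library 3 highest. Pla2g15, a lysosomal phospholipase, had 3.78 log2 and Ctsl, cathepsin L, 2.39 log2. Members that did not pass included Lipa (-0.33 log2), the lysosomal acid lipase, and Scpep1 (-0.25), a serine carboxypeptidase, which passed without KO library 1, at -0.46 log2 (edgeR adjusted p = 0.0417). The number higher was 15 without WT library 2, 12 without WT library 3 and 13 without KO library 3. The summed levels of the macrophage list, given above, rose in the same order across the KO libraries, but the order differed among the WT libraries. The part of macrophage RNA in the hydrolase levels was not tested.

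Promoters of 3 of these genes are shown because they hold TCACGTGA, the palindrome that the lysosomal transcription factors TFEB and TFE3 are known to bind. The sequences are RefSeq promoters on GRCm38.p6, 250 bases before the annotated start, 5′ to 3′ on the gene's strand, with the palindrome in capitals. They lie at chr7:142387828-142388077 (minus strand), chr2:164833523-164833772 (plus) and chrX:134601006-134601255 (minus).
Ctsd: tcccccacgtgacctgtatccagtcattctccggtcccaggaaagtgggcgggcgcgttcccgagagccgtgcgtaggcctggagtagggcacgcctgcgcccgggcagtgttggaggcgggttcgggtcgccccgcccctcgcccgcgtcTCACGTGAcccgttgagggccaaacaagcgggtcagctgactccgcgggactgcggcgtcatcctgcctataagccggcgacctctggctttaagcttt
Ctsa: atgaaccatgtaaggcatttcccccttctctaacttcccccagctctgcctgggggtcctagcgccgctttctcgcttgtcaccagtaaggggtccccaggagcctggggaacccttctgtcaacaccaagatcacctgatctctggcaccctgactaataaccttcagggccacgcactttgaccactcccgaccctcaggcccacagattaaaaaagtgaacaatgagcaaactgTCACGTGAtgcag
Gla: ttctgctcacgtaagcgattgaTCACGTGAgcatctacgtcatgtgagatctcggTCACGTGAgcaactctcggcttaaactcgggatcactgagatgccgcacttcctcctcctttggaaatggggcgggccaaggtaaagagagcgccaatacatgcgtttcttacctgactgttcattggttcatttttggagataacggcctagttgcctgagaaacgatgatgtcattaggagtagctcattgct

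The palindrome begins 99 bases before the start in Ctsd and 13 in Ctsa, and 228 and 195 bases before the start in Gla, the gene of α-galactosidase A. It reads the same on either strand and contains the shorter CACGTG. TCACGTGA was found in 0.907% of the 27025 genes with a promoter entry and in 1.8% of the 10010 tested genes that had one. Among hydrolase genes with an entry it was in 3 of the 19 called higher and 0 of the 19 not called. CACGTG was in 9 of the 19 higher and 2 of the 19 others, against 9.89% of the tested genes, and in 2 of the 11 V-ATPase genes with an entry. Of those 11, none of which was called, 1 (9.09%) held TCACGTGA, against 3 of the 38 tested hydrolase genes (7.89%). Among lysosomal membrane genes with an entry CACGTG was in 2 of the 6 called higher and 0 of the 11 not called. In the list of sterol and fatty acid synthesis, described below, it was in 2 of the 2 called lower and 2 of the 21 not called. A further motif searched, TCACNCCAC with N for any base, was in 1 of the 19 higher and 1 of the 19 other hydrolase genes. These matches describe letters in a window and do not show binding. Gla rose from 33.9, 19.2 and 26.9 to 48.4, 46.4 and 63.6 CPM (0.99 log2, SE 0.22, edgeR adjusted p = 0.0115), and did not pass without WT library 2, WT library 3 or KO library 3 (edgeR adjusted p from 0.0527 to 0.0669).

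Other parts of the lysosome and autophagy genes gave mixed counts. The V-ATPase, the pump that acidifies lysosomes, had no called gene among 16 tested, with a median of 0.05 log2. With the DESeq2 Wald test or without WT library 1, among others, 1 was called lower, and with library totals alone 2 were called higher. Of 19 tested lysosomal membrane proteins 6 were higher, among them Abca2 (1.13 log2), a lipid transporter, and Lamp1 (0.74), the main coat protein. The number was 2 without WT library 2, WT library 3 or KO library 3, and Lamp1 lost its call without any library other than KO library 1. Among 33 endolysosomal channels and transporters 5 were higher and 2 lower, with a median of 0.03 log2. The number higher was 2 without WT library 3 or KO library 3 and 3 without WT library 1, WT library 2 or KO library 2, and the number lower was 4 without KO library 1 and 1 without any other library. Slc11a1, the metal exporter NRAMP1 of phagosomes, had 42.6, 86.9 and 68.2 CPM in WT and 186, 308 and 435 in KO libraries (2.23 log2, SE 0.40, edgeR adjusted p = 0.00379). Slc36a1, an amino acid exporter of lysosomes, was higher (1.41 log2), and Mfsd12, a cysteine carrier of lysosomes, lower (-0.71). Mcoln1 had 33.8, 34.1 and 33.4 CPM in WT and 33.4, 32.1 and 31.2 in KO (-0.07 log2, SE 0.12, edgeR adjusted p = 0.785), and the groups lay within a narrow range of each other. Of the other TRPML channels, Mcoln2 was called lower at -1.26 log2 from at most 2.50 CPM, and this call did not hold when any of the libraries other than KO library 1 was left out.

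The factors that control lysosomal genes did not move together. Tfeb (-0.07 log2, 88.3, 96.3 and 103 CPM in WT and 75.8, 96.5 and 101 in KO) and Tfe3 (-0.18 log2) did not pass (edgeR adjusted p = 0.858 and 0.246). Their relatives Mitf (-0.94 log2) and Tfec (-1.62) were called lower, but neither call held without WT library 2, WT library 3, KO library 1 or KO library 3. Gpnmb, a glycoprotein that MiT factors are known to induce, rose from 2.77, 2.92 and 3.69 to 9.64, 15.5 and 20.5 CPM (2.28 log2, SE 0.38, edgeR adjusted p = 0.00261). Of 42 core autophagy genes 4 were higher and 1 was lower, with a median of -0.00 log2, near the shares of all genes (9.5% and 3.46%). The number higher was 0 or 1 without any library other than KO library 1. The lower gene was Gabarapl1 (-0.54 log2), which tags autophagosomes, and the number lower was 3 without KO library 1 and 2 without WT library 1. Map1lc3b, the gene of the autophagosome protein LC3B, had 114, 135 and 133 CPM in WT and 113, 129 and 138 in KO, and Sqstm1, the autophagy receptor p62, had 2895, 4416 and 4230.4 CPM in WT and 2125, 2481 and 2477 in KO (-0.70 log2, SE 0.22, edgeR adjusted p = 0.0547). Sqstm1 was lower in every KO library but did not pass here, while it passed with DESeq2 size factors, upper-quartile factors and the DESeq2 Wald test, among others. Among 16 autophagy receptors 2 were higher, or 1 without any library other than KO library 1. One of them was Wdfy3, which encodes a large adaptor for aggregates (2.05 log2).

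**Figure D4:**
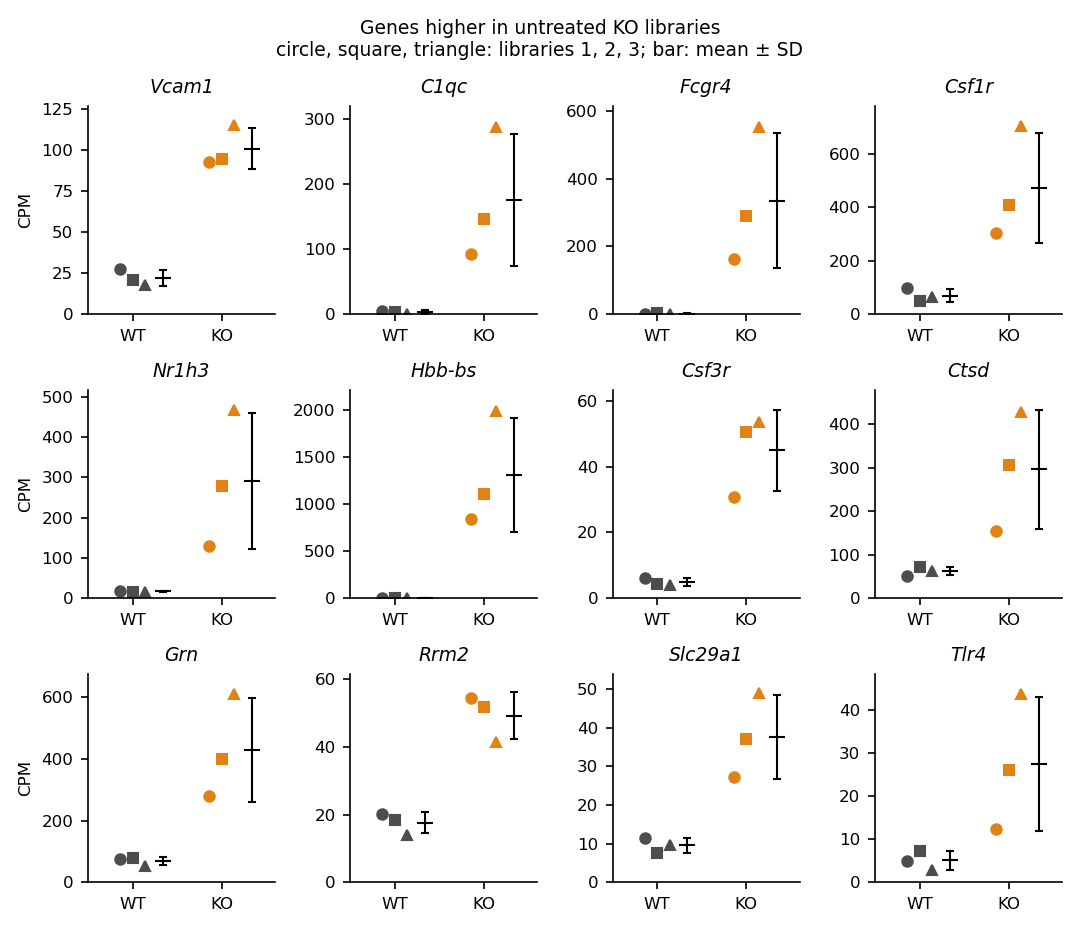
CPM of 12 higher genes in each untreated library (linear axes from 0), WT in grey and KO in orange, with circles, squares and triangles for libraries 1, 2 and 3 and a bar for the mean ± SD (n = 3). KO library 3 is the highest for most, including Csf1r (703 CPM) and Ctsd (429 CPM), whereas Rrm2 is highest in KO library 1 (54.5 CPM).

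Proliferation genes were higher in KO cells by a smaller and more even amount. Of 41 cell cycle genes tested, 29 were higher and 1 was lower, with a median of 1.01 log2 and 39 of 41 above 0. Rrm2, the subunit of ribonucleotide reductase that limits deoxynucleotide supply in S phase, had 20.3, 18.4 and 14.1 CPM in WT and 54.5, 51.7 and 41.3 in KO libraries (1.48 log2, SE 0.22, edgeR adjusted p = 0.00134). Mcm7, part of the replicative helicase, had 36.6, 30.1 and 25.98 CPM in WT and 62.4, 66.1 and 58.2 in KO (1.01 log2, SE 0.16, edgeR adjusted p = 0.00183). Stmn1, a tubulin-binding protein of dividing cells, had 44.4, 34.04 and 34.1 CPM in WT and 87.3, 82.4 and 78.3 in KO (1.14 log2, SE 0.16, edgeR adjusted p = 0.00117). Here the KO libraries lay close together, and KO library 1 was not the nearest to WT. The gene that was lower was Cdkn1a (-0.91 log2), the cell cycle inhibitor p21. The number higher was 15 without WT library 3, 17 without KO library 2 and 17 with libraries 2 and 3 alone. Erythroid precursors also express these genes, and the part of the erythroid RNA described above was not tested.

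Within nucleoside metabolism, 8 of 48 tested genes were higher and none was lower (median 0.17 log2). Gda, guanine deaminase, which degrades guanine to xanthine, had 2.13, 1.49 and 1.53 CPM in WT and 14.3, 23.5 and 14.7 in KO libraries (3.35 log2, SE 0.29, edgeR adjusted p = 0.000107). All 3 KO libraries stood well above the WT libraries, and KO library 2 was the highest. Tyms (1.00 log2) and Dut (1.13), which make and guard the precursors of thymidine in DNA, and Rrm2 were among the others, and Tyms and Rrm2 serve cell division as above. Pnp (0.62 log2) and Ada (0.61), enzymes of purine salvage and breakdown, did not pass.

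The genes that fell formed a smaller set, and several belong to mature DCs. Mmp12, a macrophage elastase, showed the smallest p of all genes: it had 91.4, 77.6 and 96.8 CPM in WT and 8.25, 10.03 and 10.2 in KO libraries (-3.22 log2, SE 0.16, edgeR adjusted p = 1.53e-06; mm10 chromosome 9, 7344381 to 7369499). The KO libraries lay close together and far below the WT libraries. H2-M2, a class Ib MHC gene of DCs, had 73.9, 58.8 and 101 CPM in WT and 11.6, 5.95 and 7.35 in KO (-3.23 log2, SE 0.30, edgeR adjusted p = 0.000141; chromosome 17, 37480851 to 37483552). Its neighbour Olfr111 was lower as well (-2.20 log2, from at most 6.35 CPM). Apol7c, an apolipoprotein L known from antigen cross-presenting DCs, had 399, 529 and 454 CPM in WT and 116, 28.3 and 26.1 in KO (-3.02 log2, SE 0.52, edgeR adjusted p = 0.00341; chromosome 15, 77524852 to 77533316), with KO library 1 well above the other KO libraries. Gm8221, a gene model in the same cluster, had 114, 147 and 119.8 CPM in WT and 9.14, 2.14 and 2.51 in KO (-4.80 log2, SE 0.56, edgeR adjusted p = 0.00042; chromosome 15, 77621834 to 77626637). Apol11b, at chromosome 15, 77633946 to 77643286 and so next to Gm8221, went the other way, with 0 counts in all WT libraries and 19.2, 11.5 and 8.72 CPM in KO, so that the ratio was at least 240.3-fold when WT is set at 3 counts for the whole group. Reads of apolipoprotein L genes can be shared between related copies, so the split between them is uncertain.

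**Figure D5:**
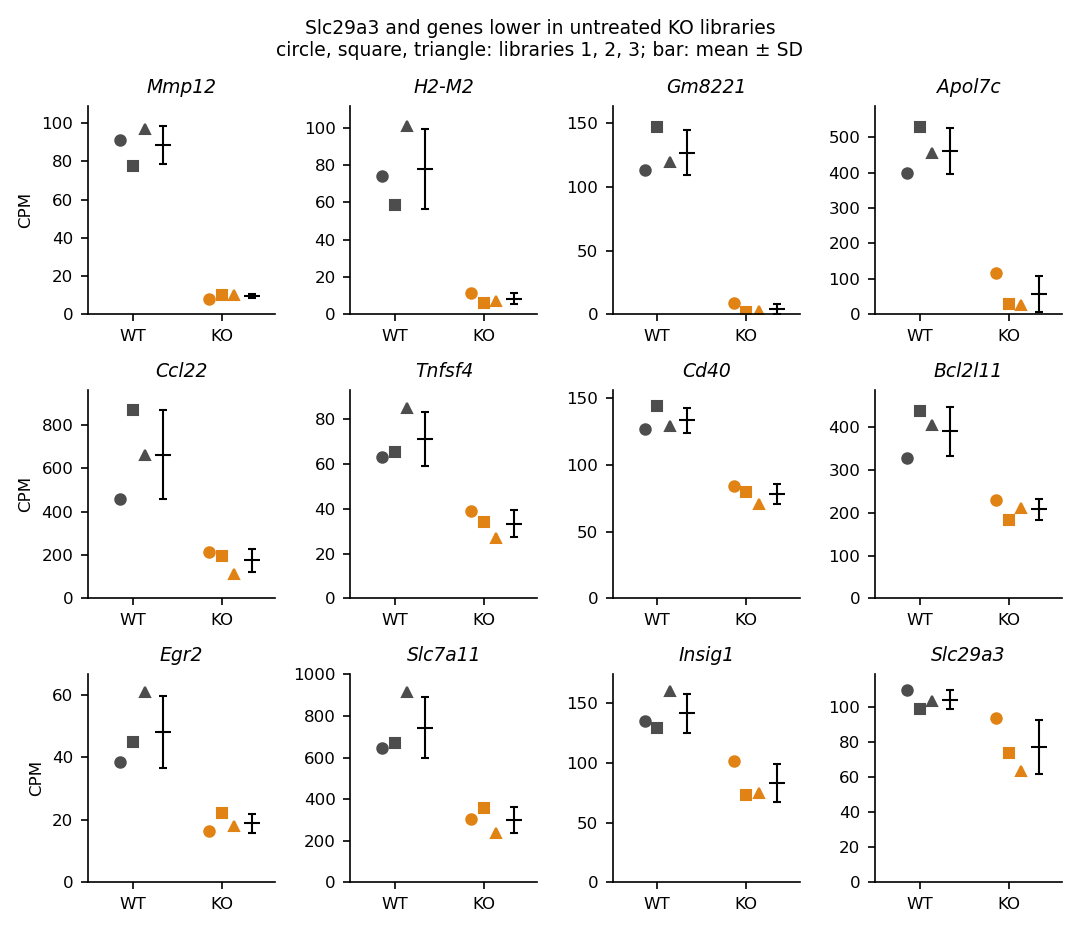
CPM of Slc29a3 and of 11 genes lower in KO, in each untreated library (linear axes from 0), WT in grey and KO in orange, with circles, squares and triangles for libraries 1, 2 and 3 and a bar for the mean ± SD (n = 3). Mmp12 falls to 8.25 to 10.2 CPM in KO from at least 77.6 CPM in WT, while Slc29a3 lies at 99.2 CPM or more in WT and at 63.5 to 94.0 CPM in KO.

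Called maturation genes were all lower, by modest amounts. Of 26 genes of DC maturation and migration listed 24 were tested, 11 were lower and none was higher, with a median of -0.47 log2. Ccl22, a chemokine of mature DCs for regulatory T cells, had 458, 871 and 659 CPM in WT and 215, 195 and 115 in KO libraries (-1.92 log2, SE 0.31, edgeR adjusted p = 0.00247). Cd40, which receives help from T cells, had 127, 144 and 129 CPM in WT and 84.4, 79.9 and 70.3 in KO (-0.77 log2, SE 0.15, edgeR adjusted p = 0.00551). Every KO library was below every WT library for both, and the KO libraries of Cd40 lay within a narrow range. Cd80 (-0.86 log2), Cd83 (-0.84) and Cd86 (-0.68) were called lower as well, and Ccr7, the receptor that guides mature DCs to lymph nodes, did not pass at -0.38 log2 but passed without KO library 1, at -0.68 log2 (edgeR adjusted p = 0.00775). The number lower was 5 without WT library 1, 6 without WT library 3, and 4 without KO library 2 or KO library 3, and Cd80, Cd83 and Cd86 each lost their call without WT library 1, KO library 2 or KO library 3, as did Cd83 without WT library 3. Tnfsf4, or OX40 ligand, a costimulator of T cells, fell from 63.1, 65.3 and 85.1 to 39.01, 34.3 and 26.98 CPM (-1.09 log2, SE 0.15, edgeR adjusted p = 0.000954).

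Chemokines, survival genes and early response genes also leaned downward. Of 18 tested chemokines 6 were lower and 1, Cxcl14, was higher, though not without WT library 1, WT library 3, KO library 2 or KO library 3. Besides Ccl22 they included Ccl5 (149, 163 and 191 CPM in WT and 79.1, 74.6 and 50.2 in KO, -1.30 log2), Ccl9 (-1.67) and Cxcl16 (-0.97). In the BCL2 family 6 of 18 tested genes were lower. They held genes of either role. Bcl2l11, which encodes the death-promoting protein BIM, had 328, 439 and 405 CPM in WT and 231, 182 and 211 in KO (-0.91 log2, SE 0.15, edgeR adjusted p = 0.00247). The survival gene Bcl2a1d (-0.58 log2), whose reads can be shared with its near-identical copies, was lower, and Bcl2, the founding survival gene, was higher (3.94, 3.13 and 2.78 CPM in WT and 9.47, 19.6 and 27.2 in KO, 2.51 log2). The number lower was 2 without WT library 3 and 3 without KO library 3.

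Among immediate early genes 11 of 31 were lower and 2 were higher, with a median of -0.48 log2. Egr2, a transcription factor induced by receptor signalling, had 38.4, 44.8 and 60.7 CPM in WT and 16.4, 22.1 and 18.02 in KO libraries (-1.35 log2, SE 0.22, edgeR adjusted p = 0.00253). Dusp1, the phosphatase that ends p38 and JNK signalling, had 425, 449 and 581 CPM in WT and 295, 267 and 269 in KO (-0.81 log2, SE 0.13, edgeR adjusted p = 0.00247). The 2 higher genes, Dusp6 (2.38 log2) and Dusp4 (1.23), encode phosphatases that act on ERK. The number lower was 7 without WT library 2 and 4 without WT library 3, KO library 2 or KO library 3. Of 26 genes of NF-kB signalling and feedback 5 were lower and 3 higher. Tnfaip2 fell (-0.92 log2), whereas Socs3, a brake on cytokine receptors that signal through STAT3, rose from 18.7, 20.4 and 18.04 to 76.5, 103 and 128 CPM (2.43 log2, SE 0.28, edgeR adjusted p = 0.000405). For this list the number lower was 15 without KO library 1, 3 without WT library 3 or KO library 3, and 12 with the DESeq2 Wald test. The NF-kB subunit genes Nfkb1 (-0.28 log2) and Nfkb2 (-0.34) did not pass, but both passed without KO library 1, at -0.61 log2 (edgeR adjusted p = 0.0229) and -0.48 log2 (edgeR adjusted p = 0.0249).

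Genes of sterol synthesis lay lower in KO cells, though few passed. Of 31 genes of sterol and fatty acid synthesis tested, 27 were below 0, with a median of -0.75 log2, the lowest of the lists shown, and 5 were called lower. Insig1, which holds SREBP in the endoplasmic reticulum and is itself induced by it, had 135, 129 and 161 CPM in WT and 101, 73.1 and 74.8 in KO (-0.77 log2, SE 0.16, edgeR adjusted p = 0.00729). KO library 1 lay between the WT libraries and the other KO libraries. The number of the list that was lower was 16 without KO library 1, with the DESeq2 Wald test or with a sex term, and 2 or 3 when any other library was left out. Fasn (-0.67 log2), the fatty acid synthase, did not pass, but passed without KO library 1, at -1.03 log2 (edgeR adjusted p = 0.00997), and with the DESeq2 Wald test, a sex term or libraries 2 and 3 alone.

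Transporters for amino acids included genes called in either direction. Slc7a11, the cystine importer of the xc- system, had 646, 672 and 913 CPM in WT and 306, 357 and 236 in KO libraries (-1.31 log2, SE 0.20, edgeR adjusted p = 0.00183). Slc16a10 (3.51, 3.69 and 4.20 CPM in WT and 30.8, 56.5 and 85.5 in KO, 3.92 log2), a carrier of aromatic amino acids, went the other way. So did Slc43a2 (2.64) and Slc7a8 (2.72), carriers of large neutral amino acids. Of 15 tested, 5 were higher and 3 lower, and the number lower was 1 without WT library 2, WT library 3, KO library 2 or KO library 3, and 6 with libraries 2 and 3 alone, the DESeq2 Wald test or a sex term.

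Genes that define the DC types changed in part. In the cDC1 list 4 of 18 genes were higher and 1 was lower, and in the cDC2 list 4 of 15 tested were higher and 1 lower. The medians were 0.39 log2 (cDC1) and -0.05 log2 (cDC2). Of the 18 cDC1 genes 15 lay above 0, and of the 15 cDC2 genes 7 did. Xcr1 (-0.53 log2) was among the cDC1 genes below 0 and did not pass. Sept3, in the cDC1 list, rose from 3.25, 4.46 and 2.10 to 18.4, 10.7 and 12.7 CPM (2.08 log2, SE 0.40, edgeR adjusted p = 0.00538). Sirpa, which labels cDC2 and is also carried by macrophages and monocytes, had 230.2, 204 and 219 CPM in WT and 332, 627 and 797 in KO libraries (1.43 log2, SE 0.27, edgeR adjusted p = 0.00545). Dtx1, a regulator of Notch signalling in the cDC2 list, fell from 104, 107 and 125 to 49.05, 53.2 and 30.9 CPM (-1.34 log2, SE 0.28, edgeR adjusted p = 0.0086). Itgam (CD11b) and Clec4a2, 2 of the higher genes of the cDC2 list, are expressed by macrophages and monocytes too. The list sums were 1534 to 2086 CPM (cDC1) and 1039 to 1210 CPM (cDC2) in WT, and 1612 to 2463 and 1182 to 1530 CPM in KO. Higher calls in the cDC1 list numbered 1 without WT library 1, WT library 3 or KO library 1, and 2 without KO library 2. The lower call in that list was lost without WT library 2 or KO library 3, and in the cDC2 list 3 were lower without KO library 1 and 2 without KO library 3.

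Among genes of antigen presentation the calls depended on the libraries used. Of 16 MHC class II genes 2 were lower, Cd74 and H2-Eb1, and neither call held without any library other than KO library 1. The number lower was 7 without KO library 1 or with a sex term, and 6 with libraries 2 and 3 alone or with the DESeq2 Wald test. March1, the ligase that removes class II from the surface, rose from 7.13, 8.20 and 4.54 to 23.9, 33.3 and 54.6 CPM (2.49 log2, SE 0.45, edgeR adjusted p = 0.00419). Of 23 class I genes 1 was lower, or 3 without KO library 1 and 0 without WT library 2, WT library 3, KO library 2 or KO library 3. Among 32 Toll-like receptor and adaptor genes 8 were higher, where 9.5% of all genes were, and 1 was lower. The number lower was 2 without KO library 1 and 0 without any other library. Tlr4, the receptor for bacterial lipopolysaccharide, had 5.00, 7.38 and 2.95 CPM in WT and 12.5, 26.2 and 43.8 in KO libraries (2.43 log2, SE 0.50, edgeR adjusted p = 0.00834). Tlr8 (1.22, 1.28 and 0.340 CPM in WT and 17.8, 32.6 and 49.8 in KO, 5.11 log2) and Irak3, an inhibitor of the pathway (3.95 log2), were also among the higher genes. Tlr7, which detects RNA in endosomes as does Tlr8, did not pass (38.5, 23.7 and 24.4 CPM in WT and 30.5, 43.8 and 47.7 in KO, 0.49 log2, SE 0.25, edgeR adjusted p = 0.227). Nor did the adaptor Myd88 (0.31 log2) or Slc15a4 (0.18), the lysosomal transporter needed for endosomal Toll-like receptor signalling. In the interferon response list 7 of 41 tested genes were higher and none lower. They included the GTPases Igtp (1.79 log2) and Iigp1, while Isg15 (0.48) did not pass.

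Some cytokine genes were called without bacteria, in either direction. Tnf (0.14 log2, edgeR adjusted p = 0.764), Il6 (0.05, 0.942) and Il12b (-0.21, 0.823) did not pass. Il10, an anti-inflammatory cytokine, rose from 0.585, 1.03 and 1.93 to 12.9, 16.6 and 28.8 CPM (4.05 log2, SE 0.50, edgeR adjusted p = 0.000594). Of 27 cytokine genes tested 4 were higher and 3 lower, where 13% of all genes were called in either direction. In untreated WT, 6 of the 27 were under the filter's count minimum in every library. The number higher was 2 without WT library 1, WT library 3 or KO library 3. The number lower was 5 without KO library 1 and 1 without KO library 2 or KO library 3. In the inflammasome list, 4 of 18 genes were lower and 3 higher, and the number higher was 1 without WT library 3. Nlrp3, the sensor, fell from 44.6, 36.7 and 39.1 to 23.2, 16.8 and 19.96 CPM (-1.01 log2, SE 0.17, edgeR adjusted p = 0.0024), and Pycard, the adaptor ASC, rose from 3.03, 2.51 and 1.87 to 10.9, 23.8 and 31.5 CPM (3.15 log2, SE 0.49, edgeR adjusted p = 0.00209).

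Housekeeping groups gave few calls. None was called among 47 ribosomal protein genes (median -0.14 log2), 18 heat shock genes or 12 mitochondrially encoded genes, and 1 of 36 nuclear genes of the respiratory chain was higher, a call lost with any library left out. With the DESeq2 Wald test 9 ribosomal protein genes were lower, and 1 heat shock gene was higher and 1 lower. Around Slc29a3 on chromosome 10, 5 of 21 tested genes within 1 Mb were higher and none was lower. That is 23.8% called, against 10.5% of 57 within 5 Mb and 13% of all genes. Of those 5, Vsir, which encodes the immune checkpoint VISTA, rose from 40.02, 26.3 and 34.5 to 74.1, 112 and 169 CPM (1.81 log2, SE 0.26, edgeR adjusted p = 0.00134), and Psap, the precursor of the saposins of lysosomes, from 1642, 1922 and 1426 to 2998, 2696 and 3503 CPM (0.88 log2, SE 0.16, edgeR adjusted p = 0.00413). These 2 genes were chosen for naming after their values were seen.

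The genotype difference was also measured in the cells given bacteria, in the other 6 libraries. There 1317 genes were higher (9.21%) and 699 lower (4.89%) in KO. Of the 1358 genes higher in untreated KO cells, 1346 (99.1%) were above 0 and 930 (68.5%) were called higher after bacteria. Of the 494 lower genes, 483 (97.8%) were below 0 and 260 (52.6%) were called lower. The labels do not say whether the same mice gave treated and untreated libraries, so these counts may not be separate observations. Mmp12 had 103, 92.9 and 70.9 CPM in treated WT and 8.15, 8.41 and 6.87 in treated KO libraries (-3.50 log2, edgeR adjusted p = 7.21e-07). C1qc had 3.46, 3.02 and 1.52 CPM in treated WT and 69.5, 109.8 and 243 in treated KO (5.75 log2, edgeR adjusted p = 0.000688). Cd40 had 614, 758 and 758 CPM in treated WT and 537, 595 and 797 in treated KO (-0.14 log2, edgeR adjusted p = 0.568), and did not pass there. Yet no gene passed the test of the difference between the 2 genotype effects at an edgeR adjusted p under 0.05, and 608 did at an unadjusted p under 0.05. A gene called in 1 condition and not in the other, such as Cd40, is therefore not shown to differ between them. The test of the difference did not pair treated with untreated libraries, and whether their numbers mark pairs was not tested.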

How the data were processed

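RNA of 12 libraries of mouse spleen CD11c+ cells, 3 per group, was read in pairs of reads by Illumina NovaSeq after random priming, per the labels' protocols. The authors deposited raw counts per gene for 54532 genes, with CASAVA 1.8, HISAT2 (no version) and mm10 named in the submitters' processing notes. Neither the tool that counted reads, nor whether it used strand, nor the release of the annotation is given in the sources used here, so overlapping and antisense genes may share reads.

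In R 4.3.3, edgeR 4.0.16 was applied to the deposited counts. The filter was filterByExpr with the 4 groups (count minimum 10). Libraries were scaled by TMM factors, and counts were fitted to all 12 libraries by the quasi-likelihood method with robust estimation and a term per group. The contrast was untreated KO minus untreated WT, with Benjamini-Hochberg adjustment over 14293 genes and a threshold of 0.05. SE is the absolute log2 difference over the square root of F. Precision is limited by 3 libraries per group, and counting intervals (95%) cover counting error only.

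The members and the 56 gene lists were chosen with earlier results of these data known. Of 1238 list symbols 1142 were tested, and some belonged to more than 1 list. Genes named are a fixed set, the 15 largest differences in each direction without overlap and a level of 5 CPM or more in the higher group, and up to 5 called members per list by p. Members named because they did not pass, or because a list had few calls, and some called members given beside them (such as Cd83, Cd86, Mylip and Nr4a1) were chosen after their values were seen. Promoter sequences came from RefSeq on GRCm38.p6, the assembly also called mm10.

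Alternatives were other scaling factors, the DESeq2 1.42.0 Wald test, limma-voom (limma 3.58.1), other filters, only the 6 untreated libraries, a replicate block, a sex term, a smallest fold of 1.5, and each library left out. Leaving out libraries 1 of both genotypes was added after seeing the data. Plots were made in Python 3.11.15 (pandas 2.3.3, matplotlib 3.10.9).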

Additional observations from a re-analysis of the deposited data

How the results depend on the processing

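None of the genes called as reported had the opposite sign in any of the 19 alternatives that tested it. The number of genes higher in KO (1358 as reported) was 573 against a smallest fold of 1.5 and from 663 to 1276 with a library left out. The number lower (494) was 308 with library totals alone, 930 with the DESeq2 Wald test, 822 with a sex term, 48 against a smallest fold of 1.5 and from 201 to 757 with a library left out. Fewer samples remain in fits with a library left out; for the other settings the cause was not tested. The share higher among called genes was 63.6% with the DESeq2 Wald test, 62.8% without KO library 1, 84.4% with library totals alone and 92.3% against a smallest fold. With libraries 2 and 3 alone, 982 genes were higher and 510 lower. Scaling by library totals turned the differences of Mcoln1 and Tfeb, which did not pass, to 0.0196 and 0.017 log2. With libraries left out, Il6 ran from -0.20 to 0.18 log2, Slc15a4 from -0.0616 to 0.278 and Tnf from -0.11 to 0.24, and with libraries 2 and 3 alone Il6 was -0.23.

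The labels do not say what replicate numbers mark. Deviations from group means correlated with r = 0.323, 0.14 and 0.0787 for the WT and KO libraries numbered 1, 2 and 3, so the numbers were not taken to pair them, and number 3 of KO correlated best with number 2 of WT (0.133). With the replicate number as a block, 1598 genes were higher and 866 lower in a fit to the 6 untreated libraries, and 1735 and 849 in a fit to all 12. Slc29a3 passed with the block in the fit to 6 libraries (-0.47 log2, edgeR adjusted p = 0.0336) and not in the fit to 12. Abca1, Fasn and Sqstm1 passed in both fits, Pnp in that to 6, and Ccr7 and Lipa in that to 12.

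Depth limits genes of low count. Of the higher genes, 224 were under the filter in WT, and their differences rest on few or no WT counts.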

Other observations

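Genes for the handling of iron and heme were higher in part. Of 18 tested, 7 were higher and 1 was lower, with a median of 0.38 log2, where 9.5% of all genes were higher. Cp, or ceruloplasmin, which oxidises iron for export, had 0.745, 0.564 and 0.908 CPM in WT and 14.4, 32.5 and 51.2 in KO libraries (5.46 log2, SE 0.62, edgeR adjusted p = 0.000405). Slc40a1, its partner in iron export, is described with the macrophage genes. The number higher was 3 without WT library 1, WT library 2, WT library 3 or KO library 2, and 4 without KO library 1. Among 34 transcription factors of DCs and related cells 7 were higher and 6 lower. Cebpb, a factor of monocytes and macrophages, had 21.4, 30.7 and 29.2 CPM in WT and 101, 134 and 156 in KO (2.26 log2, SE 0.32, edgeR adjusted p = 0.00128), and Prdm1, which encodes BLIMP1, fell from 32.5, 34.97 and 50.7 to 20.2, 19.95 and 22.1 CPM (-0.92 log2, SE 0.17, edgeR adjusted p = 0.00369). The numbers were 4 higher and 2 lower without WT library 3, 4 and 1 without KO library 3, and 2 lower without KO library 2.

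The genes in this paragraph were picked after their values were seen. Hs3st2, a sulfotransferase that modifies heparan sulfate, had 3 counts over the WT libraries and 21.7, 34.9 and 62.9 CPM in KO, a ratio of 764 (95% counting interval 261 to 3705). Cd300e, an activating receptor of monocytes, had 4.47, 8.82 and 4.48 CPM in WT and 109.7, 203 and 309.7 in KO (5.12 log2, SE 0.53, edgeR adjusted p = 0.000308). Itgad, the integrin CD11d of red pulp macrophages, had 4.47, 7.49 and 1.30 CPM in WT and 67.7, 159 and 239 in KO (5.12 log2, SE 0.74, edgeR adjusted p = 0.00147). Nr1d1, the repressor REV-ERBα of the circadian clock, had 0.585, 0.461 and 0.170 CPM in WT and 11.7, 13.3 and 28.5 in KO (5.42 log2, SE 0.59, edgeR adjusted p = 0.000336). All KO libraries lay above all WT libraries for these 4 genes. In the other direction, Nfe2l2, which encodes the oxidative stress factor NRF2, fell from 271, 324 and 341 to 207, 211 and 229.6 CPM (-0.53 log2, SE 0.12, edgeR adjusted p = 0.0104). Gclc, the limiting enzyme of glutathione synthesis and a known NRF2 target, fell from 406, 917 and 624 to 265, 244 and 289.5 CPM (-1.29 log2, SE 0.29, edgeR adjusted p = 0.0132), a call lost without WT library 2 or KO library 2.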
